A study of Rattus norvegicus with 22 samples.

Results

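The genes described here make or bind coenzyme Q, the lipid-soluble electron carrier of the inner mitochondrial membrane, also called ubiquinone. They were taken as a list of 10 symbols: Coq10b, Coq10a, Coq2, Coq3, Coq4, Coq5, Coq6, Coq7, Coq9 and Pdss1. Probe sets annotated to exactly 1 of these symbols were kept, and 9 genes had such a probe set, 1 each, of 18166 genes in all. Pdss1, a subunit of the enzyme that makes the side chain, was not analysed here. Liver RNA from 22 female Crl:CD(SD) rats, an outbred stock, was hybridised to 1 Affymetrix whole-transcript array per animal. Of these rats, 10 had received a single intraperitoneal dose of 50 mg/kg GSK932121A, an inhibitor of complex III of the respiratory chain, and their livers were collected 5 hours later. The other 12 had received the same suspension without the compound, at the same dose volume of 10 mL/kg, and the labels give no collection time for them. All rats were labelled 12 weeks old, the tissue was the median lobe, and 2 further dosed rats with low plasma levels of the compound were left out by the submitters.

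Complex III takes electrons from reduced coenzyme Q and passes them to cytochrome c, so it sits directly downstream of the coenzyme Q pool. Coenzyme Q is built inside mitochondria from a benzoquinone ring, derived from tyrosine, and a polyisoprenoid side chain, derived from the mevalonate pathway. Coq2 joins ring and side chain, a set of COQ enzymes then decorates the ring, and the finished lipid is bound by the COQ10 proteins, without which, in yeast, respiration is impaired although coenzyme Q is present. Liver holds much of this machinery, since hepatocytes are rich in mitochondria and also run the mevalonate pathway for cholesterol.

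The values are log2 intensities after RMA, which turns the probe intensities of an array into 1 background-corrected, normalised value per probe set. The medians of the 22 arrays lay between 4.73 and 4.85, and the vehicle means of the 9 genes lay between 5.76 and 7.75. Of 4 measured hepatocyte markers, 1 passed in limma: Cps1, a urea cycle enzyme, rose by 0.32 on the log2 scale (adjusted p = 0.000789), while albumin, Alb, averaged 13.38 after GSK932121A and 13.41 after vehicle. Among 27 measured markers of Kupffer, endothelial, stellate, bile duct, neutrophil and lymphoid cells, 2 rose, Cd163 by 0.36 and Lyve1 by 0.22 (adjusted p = 0.00461 and 0.0201), and none fell. For comparison, 5.31% of all genes rose and 7.05% fell in limma. The mean level of the 6 Kupffer cell markers ranged from 7.50 to 8.01 in GSK932121A arrays and from 7.39 to 8.03 in vehicle arrays, and that of the 2 endothelial markers from 8.49 to 8.91 in GSK932121A arrays and from 8.37 to 8.88 in vehicle arrays. The part of these markers in the results below was not tested. In whole liver, fewer cells of a type and less RNA per cell cannot be told apart.

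Of the 9 coenzyme Q genes, 1 rose, 1 fell and 7 did not pass, where passing means an adjusted p under 0.05 in limma after Benjamini-Hochberg adjustment over all genes. Over all genes 5.31% rose, 7.05% fell and 12.4% passed in either direction, and with 9 genes a count of 2 is not read as a result about the list. The median log2 difference of the 9 genes was 0.01, beside -0.01 over all genes. Coq10b rose 14.7-fold (95% confidence interval 9.76 to 22.1), the largest rise among the 18166 genes. The gene that fell was Coq3, a ring methyltransferase, by 1.34-fold. The other members differed by between -0.17 and 0.10 on the log2 scale.

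**Figure D1:**
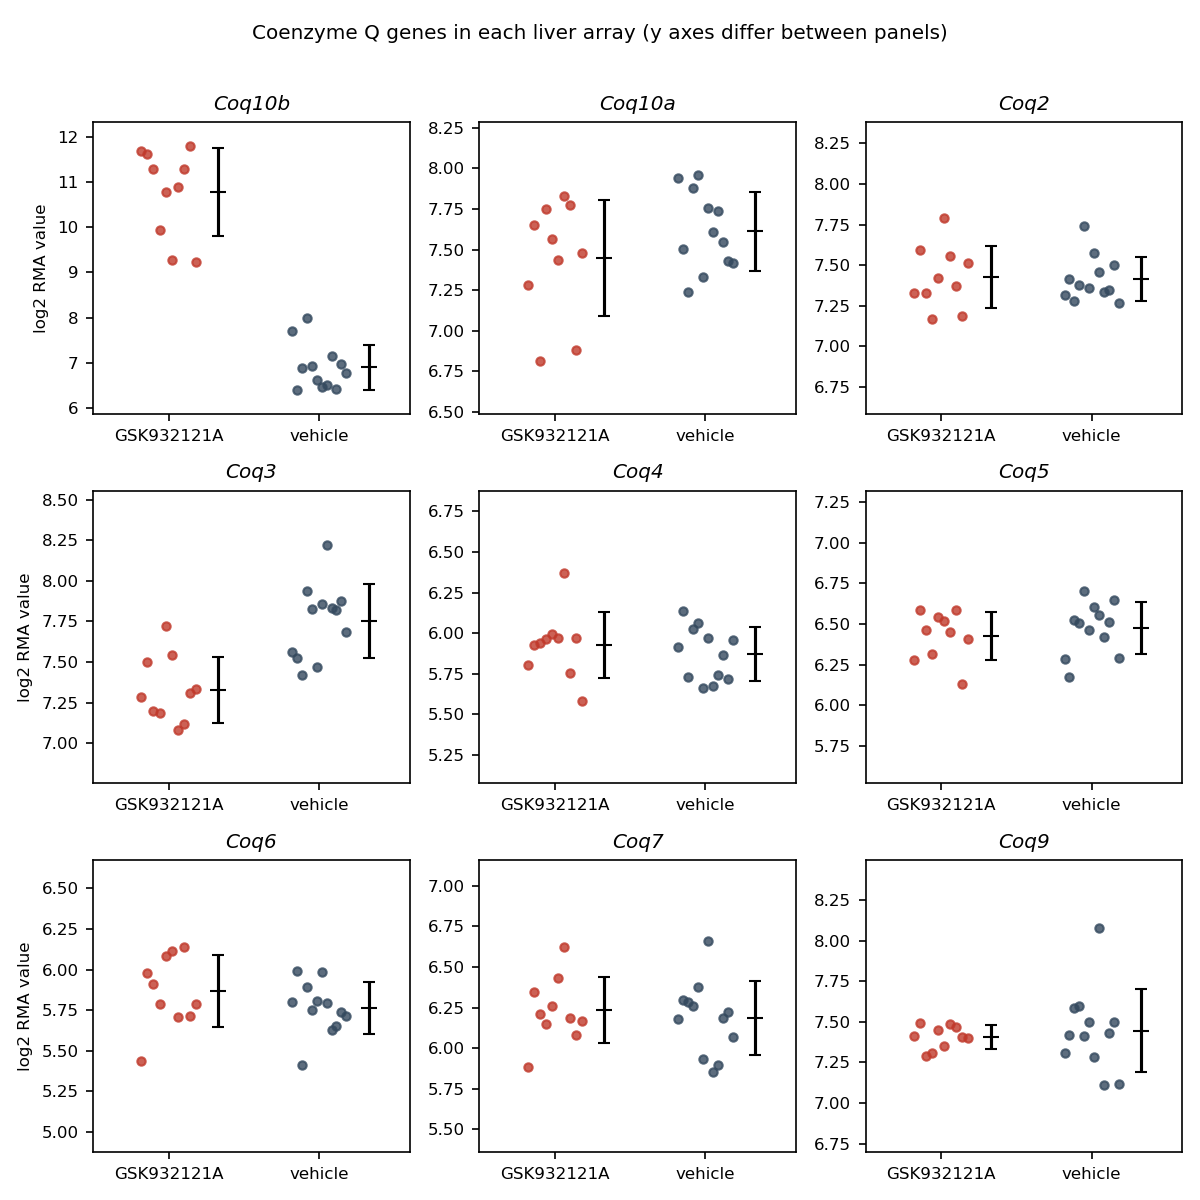
Log2 RMA value (y axis, different range in each panel) of the 9 measured coenzyme Q genes in each of 10 GSK932121A and 12 vehicle arrays (points), with the group mean and SD beside them (bars). For Coq10b the GSK932121A arrays lie between 9.23 and 11.78 and all vehicle arrays at or below 7.98, while the groups overlap in the 8 other panels.

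The coenzyme Q-binding genes were taken first. Coq10b encodes a START-domain protein that binds coenzyme Q at the inner membrane. Its log2 value in GSK932121A arrays was 9.23 at the lowest, 11.08 at the median and 11.78 at the highest, against 6.40, 6.83 and 7.98 in vehicle arrays. The groups did not overlap, and all 10 treated livers lay above every vehicle liver. Such a separation, in either direction, was found for 0.738% of all genes. The treated mean was 10.77 ± 0.97 (SD, n = 10) and the vehicle mean 6.90 ± 0.51 (SD, n = 12), a log2 difference of 3.88 ± 0.29 (SE; limma, adjusted p = 2.15e-09). By p-value Coq10b ranked 2 of all genes. With 5 surrogate variables for hidden factors in the fit the log2 difference was 2.79 (adjusted p = 1.02e-07), and these variables held 45.5% of the variance of group.

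The response of Coq10b varied between treated livers. The lowest values were 9.23 in replicate 24, 9.27 in replicate 20 and 9.94 in replicate 17, and the 7 other treated livers lay between 10.77 and 11.78. The SD of Coq10b was 1.91 times as large among GSK932121A arrays as among vehicle arrays, beside a median ratio of 1.01 over all genes. Vehicle livers differed too: replicates 4 and 1 had 7.98 and 7.69, and the 10 others had 7.15 or less.

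Coq10a, the paralog of Coq10b and likewise a coenzyme Q-binding protein, had log2 values of 6.81 at the lowest, 7.52 at the median and 7.83 at the highest after GSK932121A, against 7.24, 7.58 and 7.96 after vehicle. The groups overlapped widely, with 2 treated livers below every vehicle liver. Its log2 difference was -0.17 ± 0.12 (SE), with a 95% confidence interval from -0.41 to 0.08, and this did not pass (limma, adjusted p = 0.438). The interval leaves room for a fall of up to 1.33-fold and a rise of up to 1.06-fold. The difference between the responses of the paralogs was tested directly on the Coq10b value minus the Coq10a value of each array. That quantity ran from 1.75 to 4.90 in GSK932121A arrays and from -1.30 to 0.10 in vehicle arrays. Its group means differed by 4.04 ± 0.38 (SE) on the log2 scale (two-sided permutation test, p = 1e-05, the smallest that 100000 resamples can give). Coq10b was listed with earlier results of these data known and had the largest rise of all genes. This p therefore mostly restates the rise of Coq10b.

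The 300-base promoter windows of Coq10b, the gene that rose most, of Coq9, which did not pass, and of Pptc7, a related gene described below that also rose, are shown for comparison (RefSeq, build GRCr8, 5′ to 3′ on the strand of the gene, 250 bases before and 50 after the annotated start). Capitals mark matches to TGACG, the core of the cAMP response element, on either strand. The windows lie at chr9:64047918-64048217 on the plus strand, chr19:10185887-10186186 on the minus strand and chr12:39949052-39949351 on the minus strand.
Coq10b: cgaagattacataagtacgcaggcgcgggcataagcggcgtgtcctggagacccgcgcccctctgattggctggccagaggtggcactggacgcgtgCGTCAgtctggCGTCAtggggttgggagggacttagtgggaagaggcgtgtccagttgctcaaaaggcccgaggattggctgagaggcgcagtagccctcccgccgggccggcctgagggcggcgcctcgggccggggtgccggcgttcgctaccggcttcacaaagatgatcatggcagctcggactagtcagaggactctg
Coq9: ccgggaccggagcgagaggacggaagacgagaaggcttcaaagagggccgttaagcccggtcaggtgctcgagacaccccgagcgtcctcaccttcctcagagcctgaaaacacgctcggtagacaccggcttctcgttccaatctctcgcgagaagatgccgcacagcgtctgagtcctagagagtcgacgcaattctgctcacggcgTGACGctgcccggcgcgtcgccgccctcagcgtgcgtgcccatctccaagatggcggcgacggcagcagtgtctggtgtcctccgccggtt
Pptc7: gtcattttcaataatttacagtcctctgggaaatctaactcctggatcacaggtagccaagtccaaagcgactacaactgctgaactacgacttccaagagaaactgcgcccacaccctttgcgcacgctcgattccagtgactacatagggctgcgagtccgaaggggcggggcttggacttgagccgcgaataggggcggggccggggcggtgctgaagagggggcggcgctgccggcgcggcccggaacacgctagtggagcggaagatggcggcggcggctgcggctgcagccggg

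The Coq10b window holds 2 matches to TGACG, which begin 153 and 142 bases before the annotated start. The Coq9 window holds 1, and the window of Pptc7, which also rose, holds none. Windows were found for 7 members, and 4 of them, of Coq10b, Coq5, Coq7 and Coq9, hold the core, against 21.2% of all 33469 windows. Of these 4 genes, Coq10b rose and the others did not pass. The full element TGACGTCA (1.83% of all windows) was found in none of the 7 member windows. Nor were TGATGNAA, a composite of C/EBP and ATF sites (3.98%), TGANTCA of AP-1 (7.33%), TCAAGGTCA of estrogen-related receptors (0.433%), GCGCATGC of NRF1 (2.47%) or the E-box CACGTG (6.42%), all searched on both strands. Motifs can overlap, the full element always holding the core. The Coq10b window is 65% G or C with 27 CpG pairs, against medians of 51.7% and 7 over all windows, and base composition was not matched. For Coq3, Coq10a and Coq7 the annotated start lies inside the gene, 14794, 5354 and 590 bases from its outer end, so other starts of these genes were not searched. For Coq5, Coq6 and Coq9 this distance was 32, 41 and 24 bases.

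Among the genes that build the ring, Coq2 and the methyltransferases come first. Coq2 attaches the side chain to 4-hydroxybenzoate. Its values were 7.17, 7.40 and 7.79 (lowest, median, highest) after GSK932121A, against 7.27, 7.37 and 7.74 after vehicle, and its log2 difference of 0.01 ± 0.07 (SE) did not pass (adjusted p = 0.95). The groups overlapped almost completely, and the 95% confidence interval ran from -0.14 to 0.16.

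Coq3 encodes the O-methyltransferase that acts at 2 steps of ring synthesis. Its log2 values were 7.08 at the lowest, 7.30 at the median and 7.72 at the highest after GSK932121A, against 7.42, 7.82 and 8.22 after vehicle. The groups overlapped, but 7 treated livers lay below the lowest vehicle liver and 10 of 10 below the vehicle median. The treated mean was 7.33 ± 0.20 (SD, n = 10) and the vehicle mean 7.75 ± 0.23 (SD, n = 12), and the log2 difference was -0.42 ± 0.09 (SE; limma, adjusted p = 0.0022). Tested against a 1.2-fold change in place of none, Coq3 did not pass (adjusted p = 1), and its 95% confidence interval ran from a 1.53-fold to a 1.18-fold fall. The spread of Coq3 was similar in both groups, with an SD ratio of 0.89.

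Coq5 encodes the C-methyltransferase of the ring. It had 6.13, 6.46 and 6.59 after GSK932121A, against 6.18, 6.51 and 6.71 after vehicle, and differed by -0.05 ± 0.07 (SE; adjusted p = 0.749). Unlike Coq3, its treated livers fell on both sides of the vehicle median, 6 below and 4 above.

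Coq6 and Coq7 encode hydroxylases of the ring. Coq6, a flavoprotein, had 5.44, 5.85 and 6.14 after GSK932121A, against 5.41, 5.77 and 5.99 after vehicle, a log2 difference of 0.10 ± 0.08 (SE; adjusted p = 0.493). Coq7, a di-iron enzyme that acts late in the pathway, had 5.88, 6.20 and 6.62 after GSK932121A, against 5.86, 6.21 and 6.66 after vehicle, a difference of 0.05 ± 0.09 (SE; adjusted p = 0.816). Neither passed, and the groups of both overlapped over most of their range. The 95% confidence intervals reached a rise of 1.21-fold for Coq6 and of 1.18-fold for Coq7.

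Coq4 and Coq9 encode proteins whose roles include holding the biosynthetic complex together or presenting the lipid to it. Coq4, which organises the complex, had 5.58, 5.95 and 6.37 after GSK932121A, against 5.67, 5.89 and 6.14 after vehicle, and differed by 0.06 ± 0.08 (SE; adjusted p = 0.739). Coq9, a lipid-binding partner of Coq7, had 7.29, 7.41 and 7.49 after GSK932121A, against 7.11, 7.43 and 8.08 after vehicle, and differed by -0.04 ± 0.08 (SE; adjusted p = 0.837). The mean of Coq9 was close in both groups but its SD was 0.07 among GSK932121A arrays and 0.26 among vehicle arrays, and vehicle replicate 8 held the highest value. Without that array the Coq9 difference was 0.02.

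Taking the 7 members that did not pass, their 95% confidence intervals lay within a 1.33-fold fall and a 1.21-fold rise. Vehicle means of Coq4, Coq6 and Coq7 lay 1.08, 0.97 and 1.40 above the vehicle array medians, the lowest of the 9 members.

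**Figure D2:**
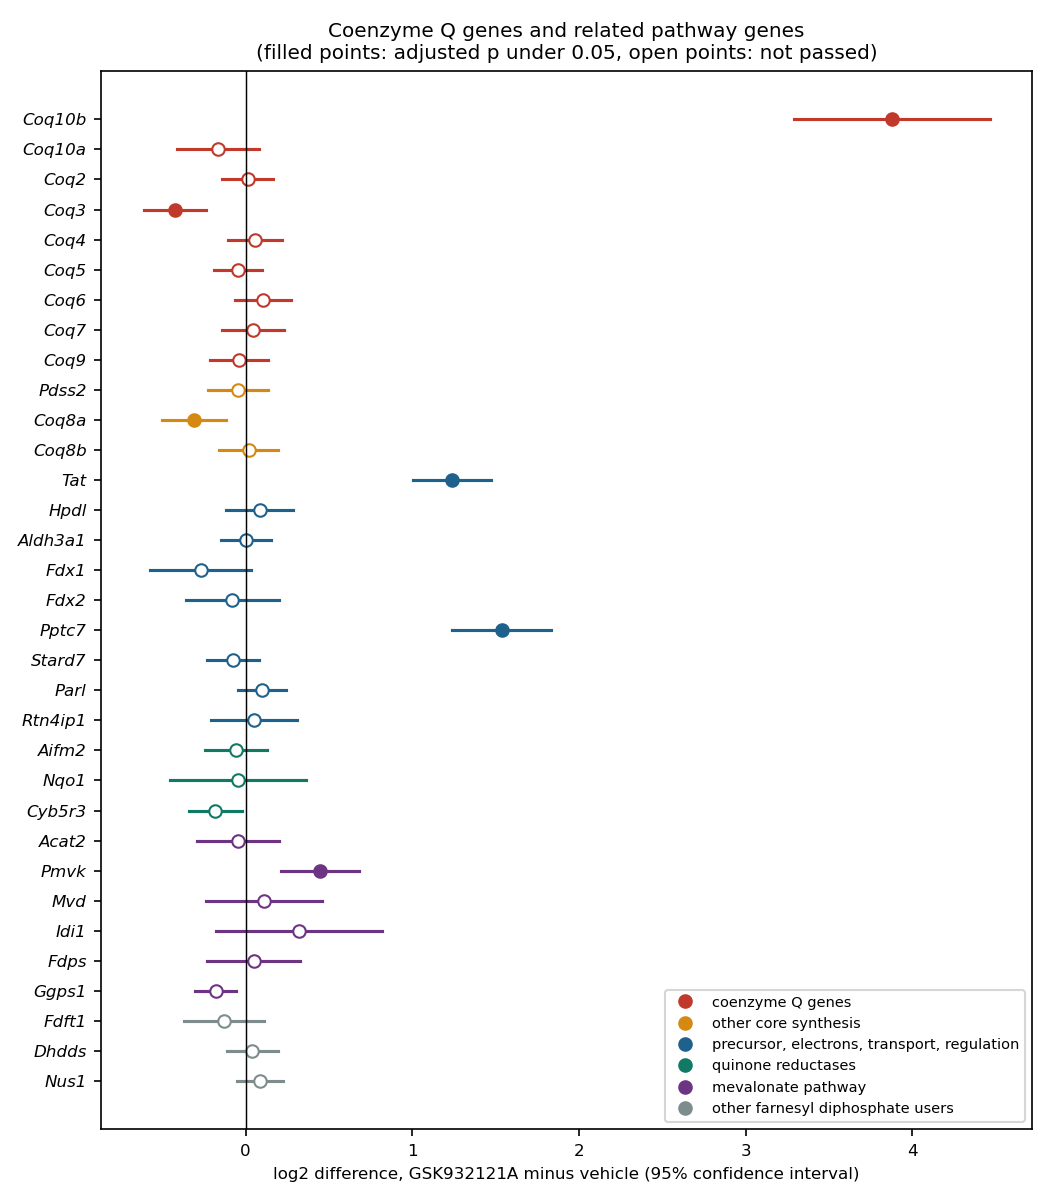
Log2 difference between GSK932121A and vehicle (x axis, GSK932121A minus vehicle) for the 9 coenzyme Q genes and 24 genes of related lists (rows), with 95% confidence intervals from limma (lines). Coq10b at 3.88, Pptc7 at 1.54 and Tat at 1.24 lie far to the right, and filled points for Coq3 at -0.42 and Coq8a at -0.31 lie to the left of 0.

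The remaining core genes of synthesis are the side chain subunit Pdss2 and the atypical kinases Coq8a and Coq8b, which are needed for assembly of the complex. Of these 3, 1 fell and none rose, beside 7.05% and 5.31% of all genes. Coq8a had 8.59, 9.00 and 9.28 after GSK932121A, against 8.95, 9.33 and 9.55 after vehicle. All 10 treated livers lay below the vehicle median, and 4 lay below the lowest vehicle liver. The log2 difference was -0.31 ± 0.09 (SE), a 1.24-fold fall (limma, adjusted p = 0.0264). This call was lost with cyclic loess normalisation (adjusted p = 0.0604), with surrogate variables (0.0593), against a 1.2-fold change (1), and without GSK932121A replicate 13 (0.0611) or 17 (0.0548). Pdss2 and Coq8b differed by -0.04 ± 0.09 and 0.02 ± 0.09 (SE; adjusted p = 0.823 and 0.933).

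Genes that supply the ring precursor or electrons, or that transport coenzyme Q or regulate its synthesis, formed the next list. Of 9 measured, 2 rose and none fell, beside 5.31% and 7.05% of all genes. The median log2 difference was 0.05. Counts from lists this small are not read as results about the lists. Pptc7, a mitochondrial phosphatase whose yeast counterpart acts on Coq7, had 7.72, 8.47 and 9.06 after GSK932121A, against 6.42, 6.84 and 7.45 after vehicle. The groups did not overlap, which held for 0.738% of all genes. The 2.90-fold rise was 1.54 ± 0.14 on the log2 scale (SE; limma, adjusted p = 7.48e-08). The gene of Coq7 itself did not pass, as given above. Tat, tyrosine aminotransferase, which starts the conversion of tyrosine to the ring and also tyrosine breakdown, had 12.60, 12.91 and 13.05 after GSK932121A, against 11.04, 11.63 and 12.34 after vehicle, again without overlap, and rose 2.36-fold (adjusted p = 4.97e-08). Hpdl and Aldh3a1, which act later on the way to the ring, the ferredoxins Fdx1 and Fdx2, the lipid carrier Stard7, the protease Parl that processes it and the oxidoreductase Rtn4ip1 differed by between -0.27 and 0.10 and did not pass.

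Quinone reductases outside the respiratory chain, Aifm2, Nqo1 and Cyb5r3, regenerate reduced coenzyme Q in other membranes. None of the 3 passed in limma. Cyb5r3, the cytochrome b5 reductase, differed by -0.18 ± 0.08 (SE; adjusted p = 0.141, unadjusted p = 0.0271), and Aifm2, also called FSP1, and Nqo1 differed by -0.06 and -0.04.

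Of 6 measured genes of the mevalonate pathway, which makes the isoprenoid units of the side chain, 1 rose and none fell. Among all genes these shares were 5.31% and 7.05%. Pmvk, phosphomevalonate kinase, had 6.16, 6.87 and 7.08 after GSK932121A, against 6.03, 6.28 and 6.51 after vehicle. In 7 treated livers it lay above every vehicle liver, and the 1.36-fold rise had an adjusted p of 0.00913 (limma). Among the treated livers, replicates 20, 21 and 24 had 6.20, 6.23 and 6.16, within the vehicle range. The call was lost by ranks, in the Wilcoxon test (adjusted p = 0.0794), against a 1.2-fold change (1) and with surrogate variables (log2 difference 0.09, adjusted p = 0.776). Acat2, Mvd, Idi1 and Fdps differed by -0.05, 0.11, 0.32 and 0.05, and Ggps1, which makes geranylgeranyl diphosphate, by -0.18 (adjusted p = 0.0518). Fdft1, Dhdds and Nus1, which draw farnesyl diphosphate towards sterols and dolichol, differed by -0.13, 0.04 and 0.09, and none passed.

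Covariation among the members was examined within each group, since the groups form separate clusters in Coq10b. Between Coq10b and each of the 8 other members, Pearson's r ran from -0.43 to 0.40 over 10 GSK932121A arrays and from -0.18 to 0.54 over 12 vehicle arrays. None of these 16 relations passed after adjustment (permutation test, lowest unadjusted p = 0.0755, lowest adjusted p = 0.937). Coq10b and Coq10a had r = -0.30 and Spearman's rho = -0.24 in GSK932121A arrays (permutation p = 0.402 and 0.512, adjusted p = 0.937 and 0.933) and r = 0.54 and rho = 0.37 in vehicle arrays (permutation p = 0.0755 and 0.239, adjusted p = 0.937 and 0.933). Without the 2 arrays farthest from the median of Coq10b these r were -0.52 and 0.10.

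The likeness of other genes to Coq10b was then ranked. Likeness was measured by Pearson's r of the deviations from group means over the 22 arrays. It was ranked among 10314 genes whose mean log2 value was at least 5, with symbols of unnamed loci, microRNAs and small nucleolar RNAs left out. It is a description without a test, and the genes named are the extremes of that ranking. The highest r were those of Ppargc1a (0.87), Rasgef1b (0.85), Aff4 (0.85), Chac1 (0.83) and Pptc7 (0.83). Ppargc1a encodes PGC-1alpha, a coactivator of mitochondrial gene transcription, Rasgef1b a guanine nucleotide exchange factor, Aff4 the scaffold of the super elongation complex, and Chac1 a glutathione-degrading enzyme. Within GSK932121A arrays alone, r with Coq10b was 0.92 for Ppargc1a and Aff4, 0.92 for Chac1, 0.88 for Rasgef1b and 0.86 for Pptc7. Within vehicle arrays it was 0.69, 0.60, 0.49, 0.79 and 0.80 for Ppargc1a, Aff4, Chac1, Rasgef1b and Pptc7.

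In the 3 treated livers with the lowest Coq10b, replicates 24, 20 and 17, Ppargc1a had 7.63, 7.24 and 8.35, and Pptc7 had 7.93, 7.72 and 8.00. These were the lowest treated values of both genes. In the vehicle livers with the highest Coq10b, replicates 4 and 1, Ppargc1a had 6.77 and 7.18, and Pptc7 had 7.45 and 7.40, the highest vehicle values of both genes. Without the 2 arrays of each group farthest from its Coq10b median, r of Coq10b with Ppargc1a was 0.74 over 8 GSK932121A arrays and 0.27 over 10 vehicle arrays, and r with Pptc7 was 0.68 and 0.35. Over the same arrays r with Rasgef1b was 0.60 and 0.40, with Aff4 0.74 and 0.41, and with Chac1 0.75 and 0.48. Without replicates 4 and 1, vehicle r was thus lower for Ppargc1a, Pptc7, Rasgef1b and Aff4, and nearly the same for Chac1. Leaving out the arrays most extreme in Coq10b also narrows its range, which can lower r by itself. These r therefore cannot show whether the relations rest on those arrays.

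**Figure D3:**
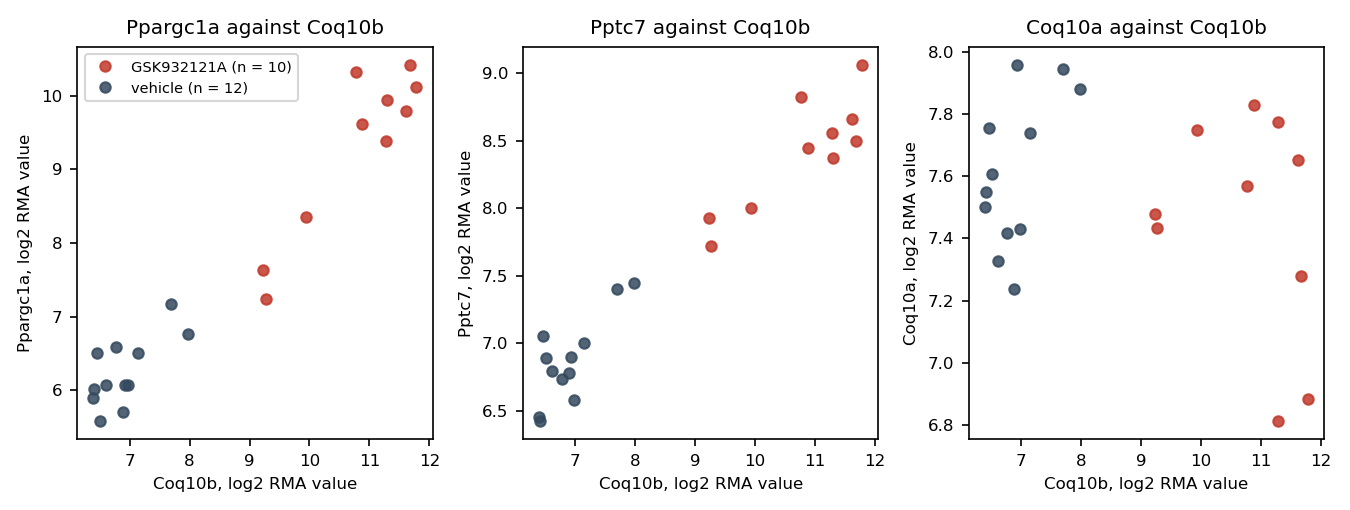
Log2 RMA values of Ppargc1a, Pptc7 and Coq10a (y axes) against Coq10b (x axis) in 10 GSK932121A arrays and 12 vehicle arrays (1 point per array). Ppargc1a and Pptc7 are low in the 3 treated arrays with the lowest Coq10b, replicates 24, 20 and 17, and Coq10a shows no such order.

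All of these like genes rose with GSK932121A, beside 5.31% of all genes. They were picked by likeness to Coq10b, whose SD was 0.97 among GSK932121A arrays and 0.51 among vehicle arrays. The ranking thus gave more weight to differences between treated livers. The group differences of the genes picked are given as description, not as separate support. Ppargc1a averaged 9.28 ± 1.14 in treated livers (SD, n = 10) and 6.25 ± 0.46 in vehicle livers (SD, n = 12), an 8.18-fold rise (limma, adjusted p = 3.9e-07). Rasgef1b rose 2.51-fold (adjusted p = 1.94e-06), Aff4 1.52-fold (1.4e-05) and Chac1 12.7-fold (3.61e-07). With surrogate variables the log2 differences of Ppargc1a and Chac1 were 1.86 and 2.12, against 3.03 and 3.67 without them, and both passed. Treated livers lay above every vehicle liver in 10 of 10 for Ppargc1a, Rasgef1b and Chac1 and in 8 of 10 for Aff4. Groups without overlap, in either direction, were found for 0.738% of all genes. The genes with the lowest r were Zfp422 (-0.79), Znf740 (-0.78), both zinc finger genes, and Mlec (-0.75), which encodes malectin of the endoplasmic reticulum. Without the 2 farthest arrays their r were -0.65, -0.60 and -0.74 over 8 GSK932121A arrays and -0.38, -0.21 and -0.37 over 10 vehicle arrays. Zfp422 and Znf740 fell 1.23-fold and 1.39-fold (adjusted p = 0.0177 and 0.0011), calls lost with surrogate variables (0.679 and 0.441) and against a 1.2-fold change (1 and 0.491). Mlec fell 1.30-fold (adjusted p = 0.033), but this call was lost by the Welch test (0.0953), the rank sum test (0.139), over all probe sets (0.0617), against a 1.2-fold change (1) and without any of 8 arrays, and with surrogate variables its difference was 0.02.

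For Coq3, the member that fell, the genes of highest r were Tmem70, an assembly factor of ATP synthase (0.78), Copg1 (0.71), Stx8 (0.70), Psma4 (0.70) and Rpn1 (0.70), and those of lowest r were Doc2g (-0.77), Ubxn7 (-0.73) and Tmem141 (-0.73). None of these 8 genes passed in the comparison of groups. Tmem70 had r = 0.71 with Coq3 over GSK932121A arrays and 0.82 over vehicle arrays, and without the 2 arrays farthest from the Coq3 median it had 0.65 and 0.82. For other genes r moved more: without those arrays r of Ubxn7 with Coq3 was 0.21 over 8 GSK932121A arrays, where over all 10 it was -0.68, and r of Psma4 was 0.37, where over all 10 it was 0.66.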

How the data were processed

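Liver RNA of 10 GSK932121A and 12 vehicle rats was measured on 1 array each. The deposited values are log2 intensities from RMA, run by the authors, per the submitters' processing notes; the RMA software and its version are not stated there. Precision is limited by how many arrays there are. The table holds 36685 probe sets, which the platform annotation pairs with 1 symbol (18511), several (575) or none (17599); only the first kind was used, with the probe set of highest mean standing for a gene, which left 18166 genes. Groups came from the labels, which give no batch. Genes were compared in limma 3.58.1 (R 4.3.3) with group alone, moderated by empirical Bayes, with Benjamini-Hochberg adjustment over all genes. The fit was tested on simulated data, where it recovered 16.4% of 67 genes changed 1.2-fold and 95.5% of 67 changed 1.5-fold. Changes near 1.2-fold were thus mostly missed in that simulation. Permutation tests used 100000 resamples, or 10000 when an array was left out (Python 3.11.15, numpy 2.4.6, scipy 1.17.1). The named genes were all members, the other core synthesis genes, genes of 5 pathway lists that passed (for the rest of these lists, counts and ranges or single values), 5 genes of highest and 3 of lowest likeness to each member that passed, and the 2 measured neighbours on each side of Coq10b and Coq10a. Members and lists were chosen with earlier results of these data known. Marker lists covered 7 cell types.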

Additional observations from a re-analysis of the deposited data

Results flagged for a closer look

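In Coq4, GSK932121A replicate 21 had a log2 value of 6.37, and its gap to the nearest other treated array was large for a group of 10 arrays. Chance marks about 1 in 20 groups in this way, and 1 of the 30 genes examined was marked.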

How the results depend on the processing

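The count of members that passed was 2 under 34 of 35 alternatives (other normalisations, filters, tests, surrogate variables and each array left out) and 1 when tested against a 1.2-fold change; leaving out 1 array at a time it stayed at 2. Coq10b passed under all 35, with log2 differences from 2.79 (surrogate variables) to 4.05. The difference between the Coq10b and Coq10a responses passed under its 27 alternatives. Without single arrays it ran from 3.87 to 4.22, and the difference of mean ranks was 11. None of the 16 correlations with Coq10b passed under any alternative. Some differences close to 0 changed sign: with 1 array left out, Coq2 ran from -0.0284 to 0.0415, Coq9 from -0.0700 to 0.0178, Coq8b from -0.0194 to 0.0732, Hspd1 from -0.0327 to 0.0486 and Slc39a5 from -0.0260 to 0.0962. With array weights Coq8b was -0.00507. Larger differences also changed sign with surrogate variables. Ankrd52 went from -0.22 to 0.0350, and Mlec, whose fall had passed, from -0.38 to 0.0206. The cause was not tested. The comparison was unpaired, since each rat received either GSK932121A or vehicle. Median centring, quantile and loess scaling each moved the median of all genes by less than 0.1. Genes filtered at a mean of 7 left out 4 members. Of 1143 recomputed values for 51 results, 1066 kept direction and call, 52 lost a call, 3 gained one and 21 changed sign. The remaining value was the count of members that passed, which moved from 2 to 1 against a 1.2-fold change.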

Other observations

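The measured genes next to Coq10b in the annotation (GRCr8) were Ankrd44 and Sf3b1 on one side and the mitochondrial chaperonin genes Hspd1 and Hspe1 on the other. Ankrd44 rose 1.70-fold (limma, adjusted p = 6.3e-06) and Sf3b1, a splicing factor subunit, 1.36-fold (0.000788), a call lost with surrogate variables (0.0519) and against a 1.2-fold change (0.658). Hspd1 and Hspe1 differed by 0.01 ± 0.09 and 0.07 ± 0.07 (SE) on the log2 scale and did not pass (adjusted p = 0.957 and 0.642). Next to Coq10a, Cnpy2, Ankrd52 and Slc39a5 differed by -0.16, -0.22 and 0.03 and did not pass. Cs, citrate synthase, the other neighbour of Coq10a, differed by -0.21 ± 0.07 (SE; adjusted p = 0.0489), a call that leaving out 1 array ended for 17 of the 22 arrays. The highest adjusted p of these was 0.106, for GSK932121A replicate 13. It was also lost under 8 other alternatives, with surrogate variables at an adjusted p of 0.158. Cnpy2 passed among genes with a mean log2 value of at least 7 (0.048), and Ankrd52 without GSK932121A replicate 17 or 21 (0.0445 and 0.0447).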
